A study of Arabidopsis with 12 samples.

Results

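Glucosinolates are sulfur-rich defence compounds of the cabbage family, and their synthesis and transport genes were followed here through 2 h of shade in Arabidopsis seedlings. The set held 41 genes, taken from a list of locus identifiers that names the enzymes of aliphatic and indole glucosinolate synthesis, 6 MYB regulators, the kinases APK1 and APK2 and the carriers GTR1 and GTR2. All 41 were among the 32833 genes of the deposited table. The list was drawn up by known function, but with earlier results of these data known. Seedlings of the bzip59 mutant, which carries the insertion SALK_024459 in the transcription factor gene bZIP59, were set against the wild type Col-0. Whole 7-day-old seedlings from continuous white light were used, and for shade the proportion of red to far-red light was set to 0.65. The groups were bzip59 shade, bzip59 white light, Col-0 shade and Col-0 white light, with 3 libraries each. The mutant is a single insertion line, and nothing in the labels tells whether replicate libraries came from separate sowings, so p-values measure only the spread between these samples.

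Synthesis runs in stages. Methionine is first lengthened in a chain elongation cycle related to leucine synthesis, while tryptophan enters directly. Cytochromes P450 of the CYP79 and CYP83 families, glutathione transferases, the peptidase GGP1, the lyase SUR1, glucosyltransferases and sulfotransferases then build the core. The sulfotransferases use the activated sulfate PAPS, which APS kinases supply. Flavin monooxygenases oxidise the sulfur of the methionine-derived side chain, and GTR1 and GTR2 move the finished compounds between organs. MYB28, MYB29 and MYB76 switch on the aliphatic branch and MYB34, MYB51 and MYB122 the indole branch. In Arabidopsis the compounds deter insects and microbes once myrosinases cleave them.

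Levels are given in TPM, a transcript abundance that is corrected for transcript length and keeps no read counts, so the depth behind a value is unknown. Each library held 18950 to 19689 genes at 1 TPM or more. Changes are differences of log2(TPM + 1), which understate changes of low genes, and calls rest on limma over 19693 genes, with Benjamini-Hochberg adjustment and a threshold of 0.05. The bZIP59 transcript (AT2G31370) stood at 7.52, 6.15 and 8.32 TPM in bzip59 shade, against 3.85, 5.47 and 3.12 TPM in bzip59 white light. It stood at 26.3, 23.1 and 19.9 TPM in shaded Col-0, against 17.5, 22.6 and 21.6 TPM in Col-0 white light, so all 6 mutant libraries lay below all 6 wild-type libraries. Green tissue markers summed to between 34878 and 48787 TPM over all libraries, endodermis markers to between 47.0 and 105 TPM and root hair markers to between 4.70 and 26.2 TPM, so shoot and root transcripts were both present. Reads shared between near-identical genes could make values uncertain for CYP79F1 and CYP79F2, CYP79B2 and CYP79B3, GSTF9 and GSTF10, MAM1 and MAM3, MYB29 and MYB76, SOT16 to SOT18, and FMO-GS-OX2 to FMO-GS-OX4.

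Before the comparisons, 2 shade libraries need description because they stood apart from the rest of their groups. In bzip59 shade 2 and Col-0 shade 1 the 7 listed dehydration genes summed to 1372 and 1467 TPM. The same genes summed to at most 358 TPM in the other bzip59 shade libraries and 513 TPM in the other Col-0 shade libraries, and to between 519 and 835 TPM in white light. The cold and dehydration gene COR15A reached 156 TPM in bzip59 shade 2 and 115 TPM in Col-0 shade 1, against at most 10.4 TPM in the other 10 libraries. RD29A, KIN1, KIN2 and COR47 also lay above all 10 other libraries in both, while RAB18 and RD29B did not. Both libraries had been noticed in earlier results of these data, so counts without the pair are given beside the main ones as a description. Of the 41 glucosinolate genes, 39 were highest among bzip59 shade libraries in bzip59 shade 2, and 40 among Col-0 shade libraries in Col-0 shade 1. Leaving the pair out therefore makes lower calls more likely, so calls and p-values without it are not further support for a change. The part of the dehydration genes in the glucosinolate results was not tested.

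After 2 h of shade, 5 glucosinolate genes were called in both genotypes with all libraries. The share of all tested genes called in both was not counted, so this overlap cannot be set against it. Of the 5 only FMO-GS-OX2 kept its call in both genotypes under every alternative in which it was tested. The aliphatic regulators MYB28 and MYB29, the side-chain monooxygenase gene FMO-GS-OX2 and the carrier gene GTR1 fell, and the indole regulator MYB51 rose. In bzip59 limma called 7 of 40 tested genes lower and 1 higher, where 3.7% of all tested genes were called lower and 6.49% higher. With TMM factors, which rescale the libraries to each other, the bzip59 counts were 14 lower and 0 higher, the median over all genes moved to log2 0.01 and the calls over all genes became 1087 lower and 994 higher, against 729 lower and 1278 higher without them. In Col-0 it called 4 of 40 lower and 1 higher, where 6.5% and 3.42% of all tested genes were called. MYB122 was below the mean of 1 TPM required for the test. The median change of the 40 genes was log2 -0.72 in bzip59, against 0.11 over all genes, and -0.54 in Col-0, against -0.01 over all genes. In both genotypes most tested members had a negative difference, 33 of 40 in bzip59 and 34 of 40 in Col-0. An unadjusted p under 0.05 was reached by 22 of the 40 in bzip59 and by 14 in Col-0, where 26.6% and 22.6% of all tested genes did. RNA came from whole seedlings, so less RNA per cell and fewer cells that make these enzymes cannot be told apart.

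The number of called genes moved with single libraries. In bzip59 between 2 and 19 members were called lower when 1 library was left out. There were 2 called without bzip59 shade 1, bzip59 shade 3 or bzip59 white light 3, where 1.71%, 1.73% and 1.97% of all tested genes were called lower. Without bzip59 white light 2 there were 3, where 2.83% of all genes were. Without Col-0 shade 1 there were 14, where 4.17% were, and without bzip59 shade 2 there were 19, where 3.26% were. In Col-0 the range was 2 to 15. It was 2 without Col-0 shade 3, where 3.18% of all genes were called lower, 7 without bzip59 shade 2, where 6.19% were, and 15 without Col-0 shade 1, where 7.53% were.

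**Figure D1:**
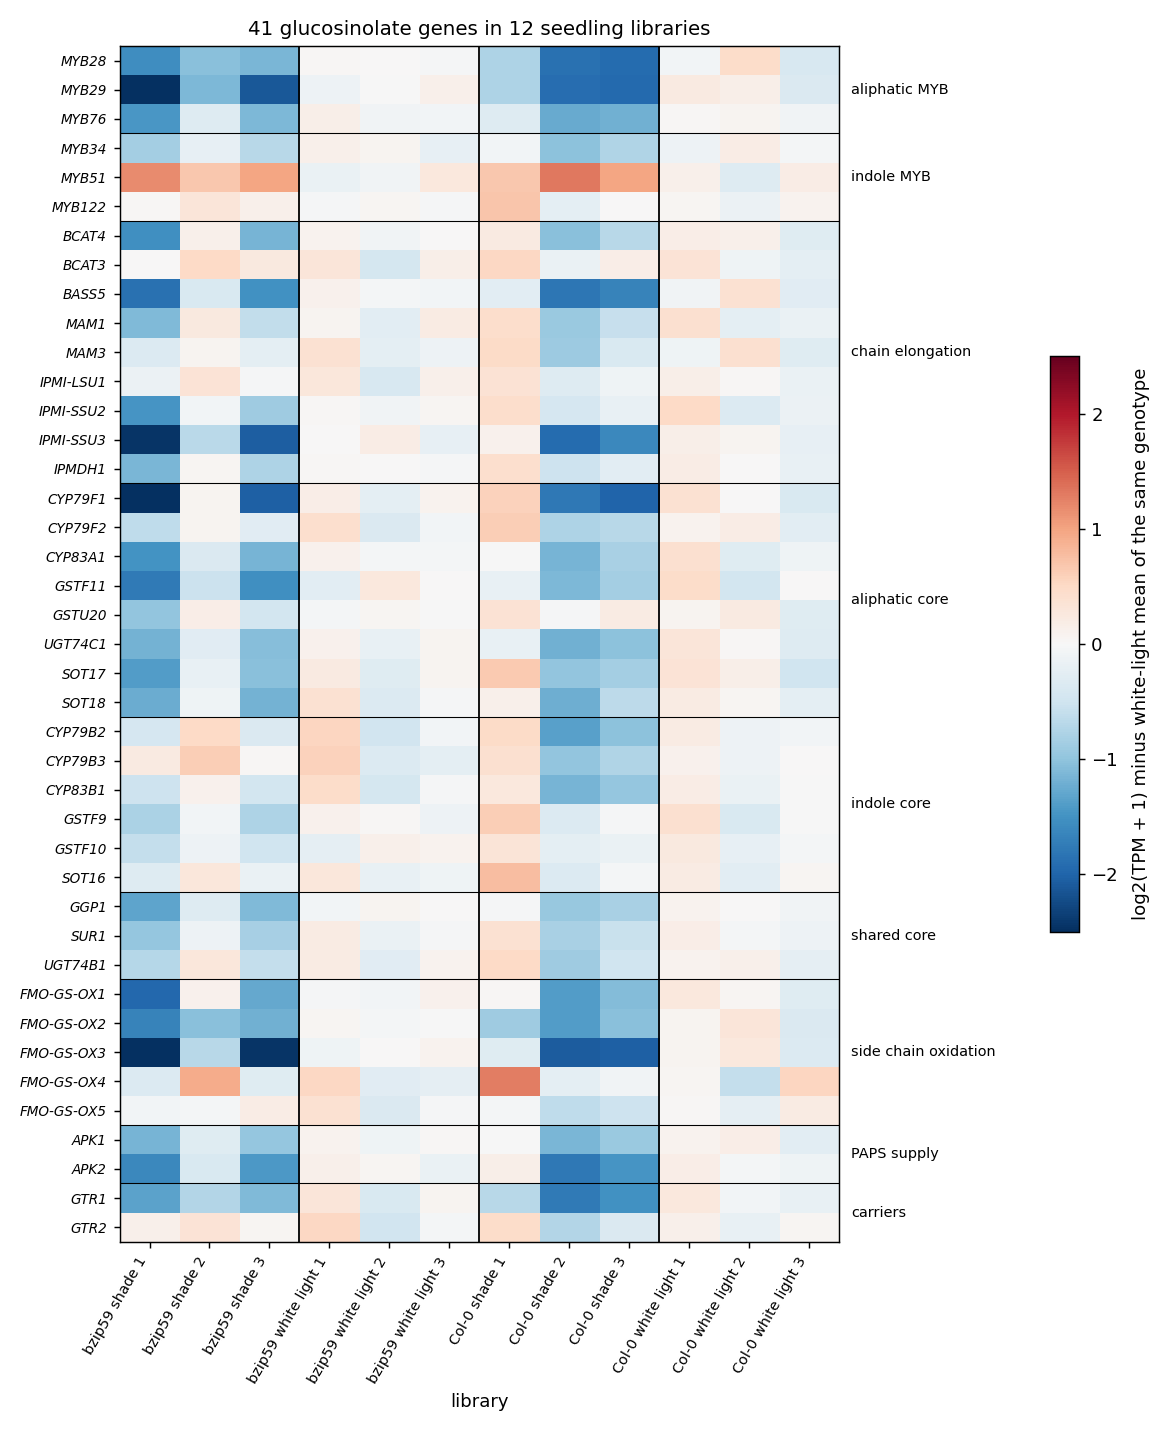
Each cell is 1 gene in 1 library, coloured by log2(TPM + 1) minus the white-light mean of the same genotype, with the colour scale limited to 2.5 on either side. Columns are the 12 libraries and rows the 41 genes by role. Blue marks fill most rows of bzip59 shade 1 and 3 and Col-0 shade 2 and 3, while bzip59 shade 2 and Col-0 shade 1 are pale, and MYB51 is red in all 6 shade libraries.

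Among the regulators of the aliphatic branch, MYB28 (AT5G61420), the main activator, held 13.0, 18.9 and 17.8 TPM in bzip59 shade, against 41.3, 40.4 and 39.2 TPM in bzip59 white light. The corresponding values were 28.1, 12.6 and 12.1 TPM in shaded Col-0, against 46.2, 67.8 and 36.9 TPM in Col-0 white light. All shade libraries lay below all white-light libraries of their genotype. MYB28 fell by 1.25 on the log2 scale in bzip59 (SE 0.29, limma adjusted p = 0.0209) and by 1.52 in Col-0 (SE 0.29, limma adjusted p = 0.00681). In bzip59 the limma adjusted p became 0.0965 when bzip59 shade 1 was left out, 0.0612 for bzip59 shade 3, 0.0575 for bzip59 white light 2 and 0.0608 for bzip59 white light 3, each ending the call.

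MYB29 (AT5G07690), which acts with MYB28, stood at 1.43, 6.89 and 3.00 TPM in bzip59 shade, against 14.9, 16.1 and 18.0 TPM in bzip59 white light. In the wild type it stood at 7.18, 2.73 and 2.66 TPM in shaded Col-0, against 15.3, 14.6 and 9.87 TPM in Col-0 white light. Again no shade library reached the lowest white-light library. The gene fell by 2.02 in bzip59 (SE 0.40, limma adjusted p = 0.00814) and by 1.54 in Col-0 (SE 0.40, limma adjusted p = 0.0299). In Col-0 the limma adjusted p became 0.114 when Col-0 shade 2 was left out, 0.13 for Col-0 shade 3, 0.0956 for Col-0 white light 1 and 0.102 for Col-0 white light 2, each ending the call. With no filter on low values it was 0.0543.

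MYB76 (AT5G07700), the third aliphatic regulator and a neighbour of MYB29, was scarce. It had 0.23, 1.71 and 0.56 TPM in bzip59 shade, against 2.77, 2.17 and 2.25 TPM in bzip59 white light, and 1.53, 0.32 and 0.36 TPM in shaded Col-0, against 2.22, 2.28 and 1.94 TPM in Col-0 white light. The groups did not overlap in either genotype, yet neither change passed the test (log2 -0.97, SE 0.31, limma adjusted p = 0.0731 in bzip59; log2 -0.92, SE 0.31, limma adjusted p = 0.0913 in Col-0). Without the pair of libraries, a fit that only describes the remaining ones, both lay under the threshold. The values were log2 -1.29, limma adjusted p = 0.00371 in bzip59 and log2 -1.23, limma adjusted p = 0.00392 in Col-0.

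Of the indole regulators only MYB51 was called. MYB51 (AT1G18570), which drives indole glucosinolate synthesis in shoots, stood at 14.8, 10.1 and 12.7 TPM in bzip59 shade, against 5.18, 5.56 and 7.32 TPM in bzip59 white light. Its Col-0 values were 9.94, 16.2 and 12.6 TPM in shaded Col-0, against 6.55, 4.46 and 6.86 TPM in Col-0 white light. Every shade library lay above every white-light library of its genotype, and MYB51 was the single member called higher (log2 0.95, SE 0.21, limma adjusted p = 0.0161 in bzip59; log2 0.99, SE 0.21, limma adjusted p = 0.0111 in Col-0). In bzip59 the limma adjusted p became 0.0816 when bzip59 shade 1 was left out, 0.0658 for bzip59 shade 3 and 0.0502 for bzip59 white light 2, each ending the call. It also missed the threshold with TMM factors (0.0515) and after quantile normalization (0.0607). In Col-0 the call was lost when Col-0 shade 2 was left out (limma adjusted p = 0.0524).

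MYB34 (AT5G60890), another activator of the indole branch, ran the other way in its values. It had 21.4, 33.6 and 23.9 TPM in bzip59 shade, against 42.8, 41.3 and 33.9 TPM in bzip59 white light, and 39.3, 19.9 and 24.0 TPM in shaded Col-0, against 37.5, 47.0 and 40.0 TPM in Col-0 white light. The bzip59 groups were separated narrowly, by 33.6 against 33.9 TPM, and in Col-0 the library Col-0 shade 1 lay within the white-light range. The change did not pass in either genotype (log2 -0.58, SE 0.23, limma adjusted p = 0.139 in bzip59; log2 -0.62, SE 0.23, limma adjusted p = 0.13 in Col-0). Without the pair it was log2 -0.76, limma adjusted p = 0.0151 in bzip59 and log2 -0.89, limma adjusted p = 0.00589 in Col-0. MYB122 (AT1G74080), a minor indole regulator, held 0.45, 0.74 and 0.56 TPM in bzip59 shade, against 0.40, 0.46 and 0.40 TPM in bzip59 white light, and 1.78, 0.45 and 0.73 TPM in shaded Col-0, against 0.79, 0.57 and 0.83 TPM in Col-0 white light. Those groups overlapped in both genotypes.

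**Figure D2:**
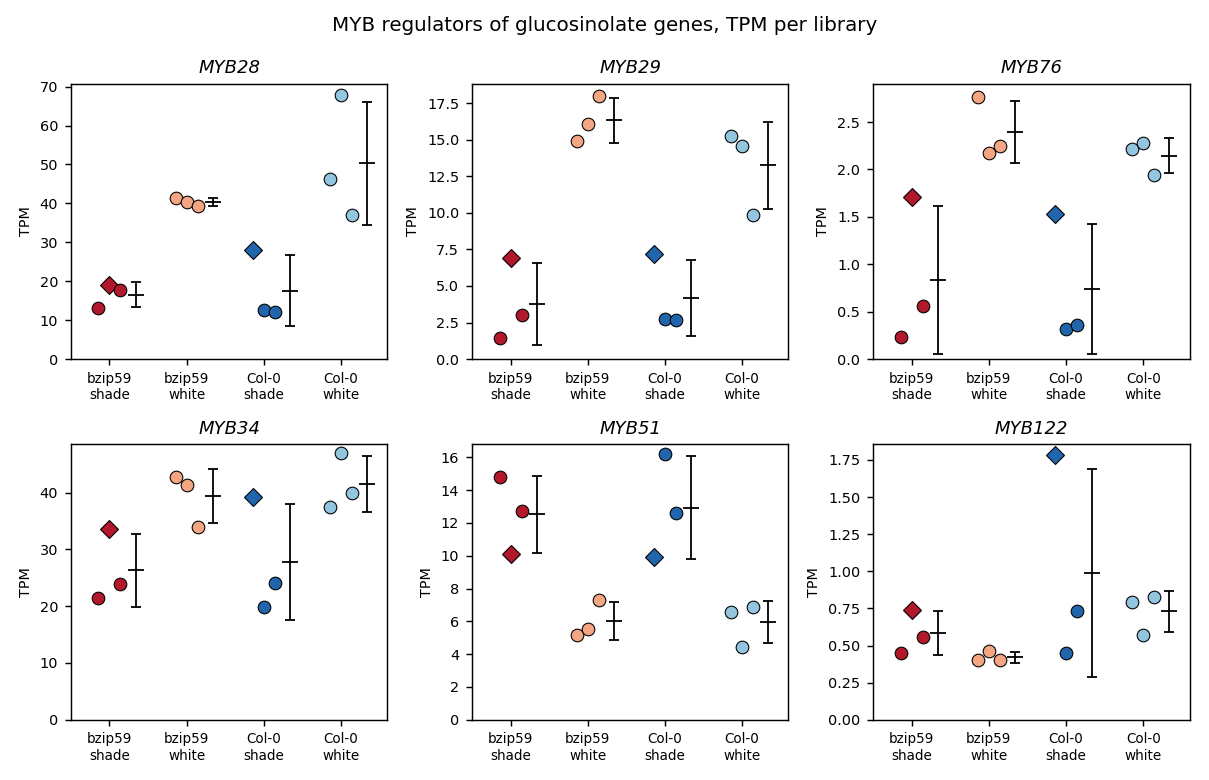
Points are TPM in single libraries for the 6 MYB genes, with bars at the mean ± SD of the 3 libraries of a group. Diamonds mark bzip59 shade 2 and Col-0 shade 1, which are the highest shade points of their genotype for MYB28, MYB29, MYB76, MYB34 and MYB122 and the lowest for MYB51.

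Chain elongation of methionine is carried out by 9 of the genes. With all libraries none was called in bzip59 or Col-0, where 3.7% and 6.5% of all tested genes were called lower. The median change of the 9 was log2 -0.63 in bzip59 and -0.27 in Col-0. Library values are given for BASS5, IPMI-SSU3 and BCAT4, picked after their values were seen. BASS5 (AT4G12030, BAT5 in RefSeq), which carries keto acids of the cycle across the plastid envelope, held 6.47, 19.8 and 8.54 TPM in bzip59 shade, against 28.2, 25.3 and 24.9 TPM in bzip59 white light. In Col-0 it held 24.0, 7.59 and 8.47 TPM in shade, against 27.1, 38.1 and 23.7 TPM in white light, with Col-0 shade 1 inside the white-light range. IPMI-SSU3 (AT3G58990, IPMI1 in RefSeq), a small subunit of the isomerase of the cycle, stood at 10.9, 39.6 and 14.5 TPM in bzip59 shade, against 64.4, 72.6 and 55.6 TPM in bzip59 white light, where all shade libraries were below white light (log2 -1.73, SE 0.50, limma adjusted p = 0.051). In the wild type it stood at 50.9, 11.7 and 14.8 TPM in shaded Col-0, against 52.4, 49.7 and 41.1 TPM in Col-0 white light. BCAT4 (AT3G19710), the aminotransferase that opens the cycle, had 27.4, 89.0 and 35.9 TPM in bzip59 shade, against 86.2, 75.9 and 81.3 TPM in bzip59 white light. Its wild-type values were 90.0, 36.6 and 47.1 TPM in shaded Col-0, against 86.5, 83.6 and 61.8 TPM in Col-0 white light. Outside the pair these 3 genes were below every white-light library in all 4 remaining shade libraries. Of all tested genes 16.4% in bzip59 and 28.7% in Col-0 lay lower in this way. Without the pair each of the 3 was called lower in both genotypes, between -1.34 and -2.25 in bzip59 and between -0.87 and -1.77 in Col-0. In that fit 3.82% of all tested genes were called lower in bzip59 and 7.38% in Col-0.

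Of the other elongation genes, IPMI-SSU2 (AT2G43100, IPMI2 in RefSeq) and IPMDH1 (AT5G14200, IMD1 in RefSeq), the dehydrogenase of the cycle, were called lower without the pair in bzip59 (log2 -1.18, limma adjusted p = 0.0163; log2 -0.96, limma adjusted p = 0.00503) and not in Col-0 (log2 -0.30, limma adjusted p = 0.538; log2 -0.39, limma adjusted p = 0.17). The interaction did not pass for either, with limma adjusted p = 0.493 for IPMI-SSU2 and 0.493 for IPMDH1 in that fit. The synthases MAM1 (AT5G23010) and MAM3 (AT5G23020, IMS2 in RefSeq), which condense the chain, were not called with or without the pair. BCAT3 (AT3G49680), an aminotransferase of the plastid, and IPMI-LSU1 (AT4G13430, IIL1 in RefSeq), the large isomerase subunit, both also serve the synthesis of branched amino acids. Neither was called in either fit. Their log2 differences with all libraries were 0.25 in bzip59 and 0.18 in Col-0 for BCAT3, and 0.06 in bzip59 and -0.01 in Col-0 for IPMI-LSU1.

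In the aliphatic core pathway limma called 1 of 8 genes lower in bzip59 and 0 in Col-0, where 3.7% and 6.5% of all tested genes were. An unadjusted p under 0.05 was reached by 5 of the 8 in bzip59 and 1 in Col-0, where 26.6% and 22.6% of all tested genes did. The called gene was GSTF11 (AT3G03190), a glutathione transferase assigned to the aliphatic branch, with 5.65, 14.6 and 6.80 TPM in bzip59 shade, against 17.9, 26.2 and 21.8 TPM in bzip59 white light. In Col-0 it had 14.8, 7.28 and 8.93 TPM in shade, against 23.7, 12.1 and 17.0 TPM in white light. The bzip59 groups did not overlap and the Col-0 groups did (log2 -1.29, SE 0.34, limma adjusted p = 0.035 in bzip59; log2 -0.72, SE 0.34, limma adjusted p = 0.238 in Col-0). In bzip59 the limma adjusted p became 0.144 when bzip59 shade 1 was left out, 0.134 for bzip59 shade 3, 0.113 for bzip59 white light 2, 0.094 for bzip59 white light 3 and 0.0518 for Col-0 shade 3, each ending the call. With no filter it was 0.0599, and with the bzip59 libraries alone 0.0592.

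CYP79F1 (AT1G16410), the P450 that takes elongated methionine into the core pathway, was singled out after its values were seen because its shade libraries lay far apart. It held 3.16, 33.2 and 6.88 TPM in bzip59 shade, against 35.3, 26.4 and 33.4 TPM in bzip59 white light. Its wild-type values were 30.8, 5.16 and 4.29 TPM in shaded Col-0, against 26.8, 20.4 and 15.3 TPM in Col-0 white light. The libraries of the pair lay inside or above the white-light range, while the other 4 shade libraries stood at 6.88 TPM or less. The change did not pass (log2 -1.64, SE 0.74, limma adjusted p = 0.183 in bzip59; log2 -1.07, SE 0.74, limma adjusted p = 0.444 in Col-0), and without the pair it was log2 -2.50, limma adjusted p = 0.000758 in bzip59 and log2 -1.90, limma adjusted p = 0.00291 in Col-0. Its tandem neighbour CYP79F2 (AT1G16400), which prefers longer chains, had 6.76, 11.5 and 8.82 TPM in bzip59 shade, against 15.0, 8.37 and 10.5 TPM in bzip59 white light, and 19.9, 7.02 and 7.46 TPM in shaded Col-0, against 13.5, 14.5 and 10.3 TPM in Col-0 white light. CYP79F2 was not called with or without the pair (without it, log2 -0.46, limma adjusted p = 0.266 in bzip59 and log2 -0.73, limma adjusted p = 0.0849 in Col-0).

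CYP83A1 (AT4G13770), the next P450 of the branch, the glucosyltransferase gene UGT74C1 (AT2G31790, listed by locus in RefSeq) and the sulfotransferase genes SOT17 (AT1G18590) and SOT18 (AT1G74090) had changes between log2 -1.0 and -0.84 in bzip59 and between -0.80 and -0.40 in Col-0, and none was called. Without the pair all 4 were called lower in both genotypes, from log2 -1.33 to -1.12 in bzip59 and from -1.11 to -0.93 in Col-0. In that fit 3.82% of all tested genes were called lower in bzip59 and 7.38% in Col-0. GSTU20 (AT1G78370), a transferase with a role in aliphatic synthesis, had log2 differences of -0.43 in bzip59 and 0.18 in Col-0, neither called. Without the pair it was called lower in bzip59 (log2 -0.73, limma adjusted p = 0.0461) and not in Col-0 (log2 0.09, limma adjusted p = 0.841).

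Of the 6 indole core genes limma called 0 in bzip59 and 0 in Col-0, where 3.7% and 6.5% of all tested genes were called lower. An unadjusted p under 0.05 was reached by 1 gene in bzip59 and 0 in Col-0, where 26.6% and 22.6% of all tested genes did. The median change of the 6 was log2 -0.19 in bzip59 and -0.24 in Col-0. CYP79B2 (AT4G39950) and CYP79B3 (AT2G22330), which turn tryptophan into its aldoxime, and CYP83B1 (AT4G31500), which acts on the aldoxime, had log2 differences of -0.09, 0.29 and -0.29 in bzip59 and of -0.64, -0.45 and -0.62 in Col-0. Without the pair CYP79B2 and CYP83B1 were called lower in Col-0 (log2 -1.20, limma adjusted p = 0.0165; log2 -1.07, limma adjusted p = 0.0155) but not in bzip59 (log2 -0.39, limma adjusted p = 0.392; log2 -0.49, limma adjusted p = 0.228). The interaction in that fit did not pass for CYP79B2 (limma adjusted p = 0.524) or CYP83B1 (0.552). The transferase genes GSTF9 (AT2G30860) and GSTF10 (AT2G30870) and the sulfotransferase gene SOT16 (AT1G74100) had changes between -0.55 and -0.06 in bzip59 and between -0.03 and 0.13 in Col-0. GSTF9 alone of these was called without the pair, in bzip59 (log2 -0.78, limma adjusted p = 0.0483).

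Both branches share GGP1, SUR1 and UGT74B1. GGP1 (AT4G30530), which trims the glutathione conjugate, held 70.8, 143 and 82.5 TPM in bzip59 shade, against 170.0, 186 and 178 TPM in bzip59 white light. In Col-0 it held 148, 78.0 and 85.5 TPM in shade, against 160.0, 152 and 143 TPM in white light. All bzip59 shade libraries lay below white light, while Col-0 shade 1 lay inside the white-light range. GGP1 was called lower in bzip59 close to the threshold (log2 -0.91, SE 0.26, limma adjusted p = 0.0488), and the call ended under 14 of 22 alternatives, with an adjusted p of up to 0.189. Of the single libraries, bzip59 shade 2 and Col-0 shade 1 could be left out with the call kept. Leaving out any other library gave a limma adjusted p of at least 0.0501, the value without Col-0 shade 2, and the highest was without bzip59 shade 1. In Col-0 GGP1 did not pass (log2 -0.60, SE 0.26, limma adjusted p = 0.199), nor did SUR1 (AT2G20610), the carbon-sulfur lyase, or UGT74B1 (AT1G24100), the glucosyltransferase, in either genotype. Without the pair GGP1 and SUR1 were called lower in both genotypes, and UGT74B1 in Col-0 (log2 -0.70, limma adjusted p = 0.0447) but not in bzip59 (log2 -0.66, limma adjusted p = 0.0608). In that fit 3.82% of all tested genes were called lower in bzip59 and 7.38% in Col-0.

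The 5 side-chain oxygenases were not all called alike, and differences between them were not tested. FMO-GS-OX2 (AT1G62540) was low, with 0.76, 1.70 and 1.43 TPM in bzip59 shade, against 4.77, 4.40 and 4.54 TPM in bzip59 white light. In Col-0 it had 1.55, 0.79 and 1.26 TPM in shade, against 3.89, 4.81 and 2.63 TPM in white light. Shade libraries lay below all white-light libraries in both genotypes, and the gene was called lower in both (log2 -1.30, SE 0.22, limma adjusted p = 0.00384 in bzip59; log2 -1.11, SE 0.22, limma adjusted p = 0.00864 in Col-0). That call held under every alternative in which the gene was tested. It was not tested at a required mean of 5 TPM.

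FMO-GS-OX3 (AT1G62560) held 2.22, 12.9 and 3.11 TPM in bzip59 shade, against 20.1, 21.7 and 23.1 TPM in bzip59 white light. In Col-0 it held 12.6, 3.00 and 3.08 TPM in shade, against 16.7, 19.2 and 12.3 TPM in white light. It was called lower in bzip59 (log2 -1.99, SE 0.53, limma adjusted p = 0.0367) and missed the threshold in Col-0 (log2 -1.47, SE 0.53, limma adjusted p = 0.116), where Col-0 shade 1 overlapped white light. In bzip59 the limma adjusted p became 0.149 when bzip59 shade 1 was left out, 0.141 for bzip59 shade 3, 0.0939 for bzip59 white light 2, 0.103 for bzip59 white light 3 and 0.0526 for Col-0 white light 1, each ending the call. With no filter it was 0.0639, and with the bzip59 libraries alone 0.0589. Without the pair it had the largest fall of the 40 genes in both genotypes, -2.64 in bzip59 and -2.06 in Col-0. FMO-GS-OX1 (AT1G65860) was called lower without the pair in both (-1.62 in bzip59; -1.24 in Col-0). FMO-GS-OX4 (AT1G62570) and FMO-GS-OX5 (AT1G12140) were not called in either fit. FMO-GS-OX4, looked at after its values were seen, stood at 46.3, 15.4 and 17.4 TPM in shaded Col-0, against 19.2, 11.9 and 27.3 TPM in Col-0 white light. Col-0 shade 1 exceeded every white-light library of the gene in Col-0.

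PAPS for the sulfotransferases comes from the plastid kinases APK1 (AT2G14750, APK in RefSeq) and APK2 (AT4G39940, AKN2 in RefSeq). APK1 held 26.7, 48.8 and 30.5 TPM in bzip59 shade, against 64.3, 56.3 and 61.8 TPM in bzip59 white light. In Col-0 it held 56.9, 25.6 and 29.9 TPM in shade, against 60.9, 64.9 and 47.9 TPM in white light. APK2 held 28.6, 68.8 and 32.4 TPM in bzip59 shade, against 97.6, 92.5 and 80.4 TPM in bzip59 white light. In Col-0 APK2 had 81.4, 20.7 and 25.8 TPM in shade, against 82.0, 70.9 and 68.0 TPM in white light. Every bzip59 shade library lay below white light for both genes, and the library Col-0 shade 1 lay inside the white-light range and the other shade libraries below it. Neither kinase passed with all libraries. APK1 had log2 -0.81, SE 0.28, limma adjusted p = 0.0892 in bzip59 and log2 -0.69, SE 0.28, limma adjusted p = 0.162 in Col-0. APK2 had log2 -1.15, SE 0.43, limma adjusted p = 0.118 in bzip59 and log2 -1.03, SE 0.43, limma adjusted p = 0.178 in Col-0. Without the pair both were called, APK1 at log2 -1.06, limma adjusted p = 0.00283 in bzip59 and log2 -1.03, limma adjusted p = 0.0028 in Col-0, and APK2 at log2 -1.53, limma adjusted p = 0.00026 in bzip59 and log2 -1.62, limma adjusted p = 0.000177 in Col-0. In that fit 3.82% of all tested genes were called lower in bzip59 and 7.38% in Col-0.

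Of the carriers GTR1 was called and GTR2 was not, a difference that was not tested. GTR1 (AT3G47960), a plasma membrane importer, stood at 7.75, 12.3 and 9.22 TPM in bzip59 shade, against 26.2, 16.0 and 22.3 TPM in bzip59 white light. In Col-0 it stood at 13.7, 5.98 and 7.35 TPM in shade, against 27.6, 21.5 and 19.8 TPM in white light. No shade library reached white light in either genotype, and GTR1 was called lower in both (log2 -1.06, SE 0.27, limma adjusted p = 0.0322 in bzip59; log2 -1.32, SE 0.27, limma adjusted p = 0.0101 in Col-0). In bzip59 the limma adjusted p became 0.131 when bzip59 shade 1 was left out, 0.11 for bzip59 shade 3, 0.0632 for bzip59 white light 1 and 0.0971 for bzip59 white light 3, each ending the call. With no filter it was 0.0541. In Col-0 the call was lost when Col-0 shade 3 was left out (limma adjusted p = 0.0528).

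GTR2 (AT5G62680), its closest relative, held 21.5, 25.2 and 20.4 TPM in bzip59 shade, against 28.6, 13.8 and 18.9 TPM in bzip59 white light. The Col-0 values were 33.0, 14.0 and 18.3 TPM in shaded Col-0, against 26.2, 20.9 and 24.8 TPM in Col-0 white light. Its groups overlapped, and its change was not called with all libraries (log2 0.18, SE 0.29, limma adjusted p = 0.732 in bzip59; log2 -0.21, SE 0.29, limma adjusted p = 0.731 in Col-0) or without the pair (log2 0.09, limma adjusted p = 0.861 in bzip59; log2 -0.55, limma adjusted p = 0.244 in Col-0). Outside the pair the Col-0 shade libraries of GTR2, at 14.0 and 18.3 TPM, lay below all Col-0 white-light libraries.

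**Figure D3:**
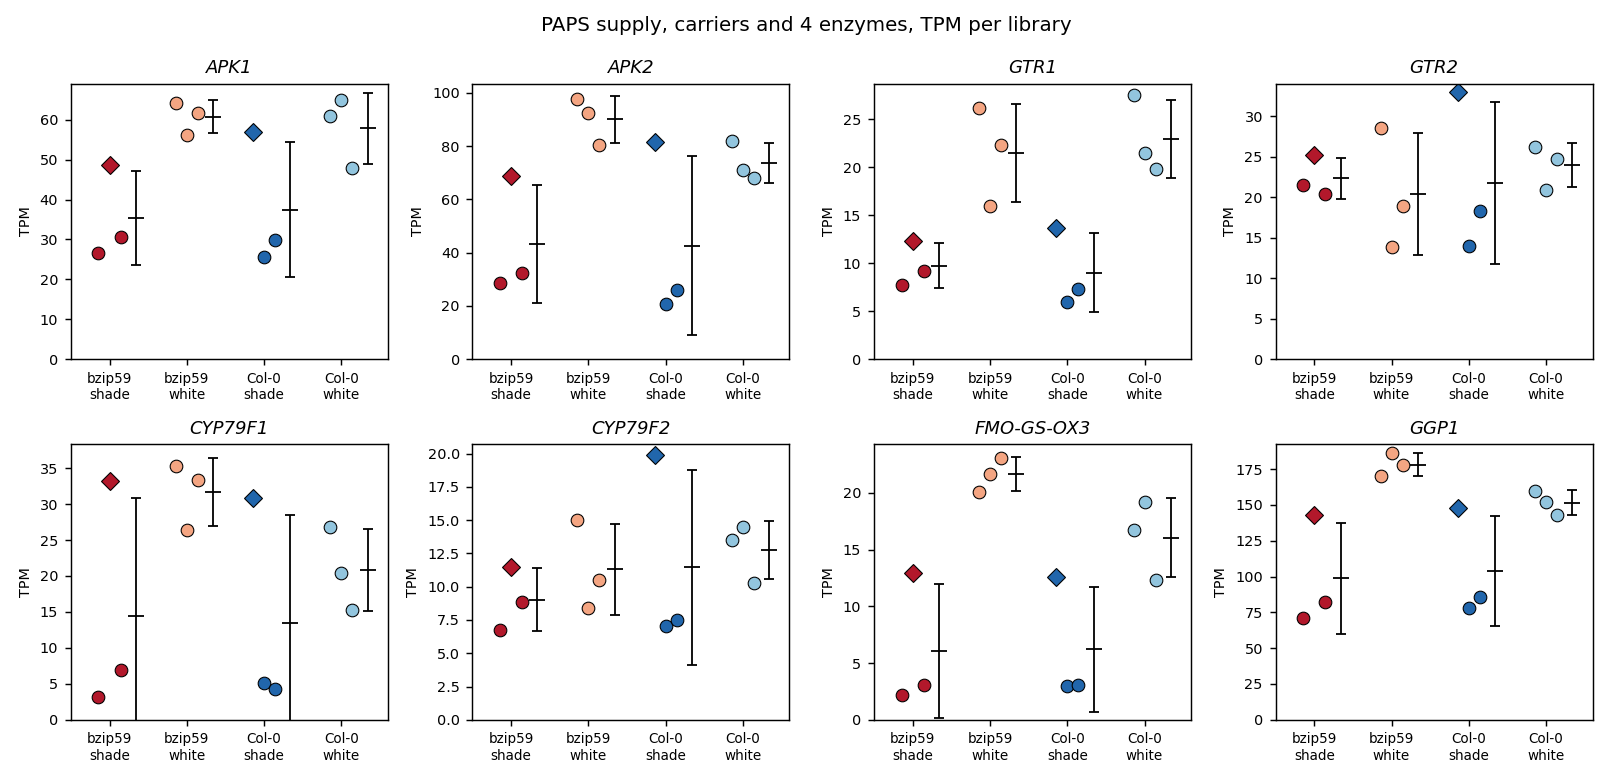
Points are TPM in single libraries for the kinases, the carriers and 4 enzymes picked after their values were seen, with bars at the mean ± SD of each group and the axis starting at 0, which cuts the lower bar of CYP79F1 in shade. Diamonds mark bzip59 shade 2 and Col-0 shade 1. GTR1 shade points all lie under white light, and CYP79F1 shade points outside the pair lie at 6.88 TPM or less.

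Library by library, the members lay low in 4 of the 6 shade libraries. In bzip59 shade 1, 2 and 3 there were 33, 15 and 30 of the 41 genes below all 3 bzip59 white-light libraries, where 21.8%, 17.6% and 21.7% of all tested genes lay below. In Col-0 shade 1, 2 and 3 there were 5, 36 and 31, where 23.4%, 41% and 34.1% of all genes lay below. Above all 3 white-light libraries lay 1, 12 and 2 members in bzip59 shade 1 to 3, where 33.6%, 40.9% and 34.2% of all genes did. The counts above were 22, 1 and 1 in Col-0 shade 1 to 3, where 40.2%, 19.3% and 27.2% of all genes did. The median difference from the white-light mean was log2 -1.15, -0.06 and -0.83 in bzip59 shade 1 to 3, and 0.31, -1.0 and -0.75 in Col-0 shade 1 to 3. Groups did not overlap, with shade lower, for 15 genes in bzip59 and 5 in Col-0, where 10.5% and 15.8% of all genes met this. The 5 genes of Col-0, MYB28, MYB29, MYB76, FMO-GS-OX2 and GTR1, were also among the 15 of bzip59. How many of all genes met this in both genotypes was not counted.

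The pair differed from its own groups in nearly the whole set. In bzip59 shade 2, 39 of 41 genes lay above both other bzip59 shade libraries, where 47.6% of all tested genes did, and MYB51 and FMO-GS-OX5 were the exceptions. In Col-0 shade 1, 40 of 41 lay above both other Col-0 shade libraries, where 60.7% of all tested genes did, and MYB51, which lay below, was the exception. The 3 aliphatic MYB genes nonetheless lay below all white-light libraries in both libraries of the pair. Their median difference from the white-light mean was log2 -1.05 in bzip59 shade 2 and -0.77 in Col-0 shade 1. That of MYB76 was -0.32 and -0.31. The enzyme genes were mixed there. Of all tested genes 17.6% lay below white light in bzip59 shade 2 and 23.4% in Col-0 shade 1. Of the 8 aliphatic core genes 3 lay below white light in bzip59 shade 2 and 0 in Col-0 shade 1. For the 9 elongation genes the counts were 2 and 0, and for the 3 shared core genes 1 and 0. They were 2 and 1 for the 5 side-chain oxygenases and 2 and 0 for the 2 APK genes. Of the 6 indole core genes 0 lay below in either library.

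Without the pair, limma called 25 of 40 genes lower and 1 higher in bzip59, where 3.82% and 5.13% of all tested genes were called, and 24 lower and 1 higher in Col-0, where 7.38% and 2.91% were. The higher gene was MYB51 in both. Of the lower genes 21 were called in both genotypes, 4 in bzip59 alone (IPMI-SSU2, IPMDH1, GSTU20 and GSTF9) and 3 in Col-0 alone (CYP79B2, CYP83B1 and UGT74B1), and the interaction in the same fit passed for none of these 7 by limma, with 4 of the 40 genes at an unadjusted p under 0.05. Medians were log2 -1.01 in bzip59, against 0.09 over all genes, and -0.89 in Col-0, against -0.07 over all genes. Shade lay below white light without overlap for 30 genes in bzip59 and 31 in Col-0, where 16.4% and 28.7% of all genes did. By role, the 21 held all 3 aliphatic MYB genes, MYB34, GTR1 and both APK genes, 6 of the 8 aliphatic core genes and 3 of the 9 elongation genes. No indole core gene was among them, and the share of all tested genes called lower in both genotypes was not counted. Since these libraries were left out with their levels known, the counts describe the other 10 libraries.

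**Figure D4:**
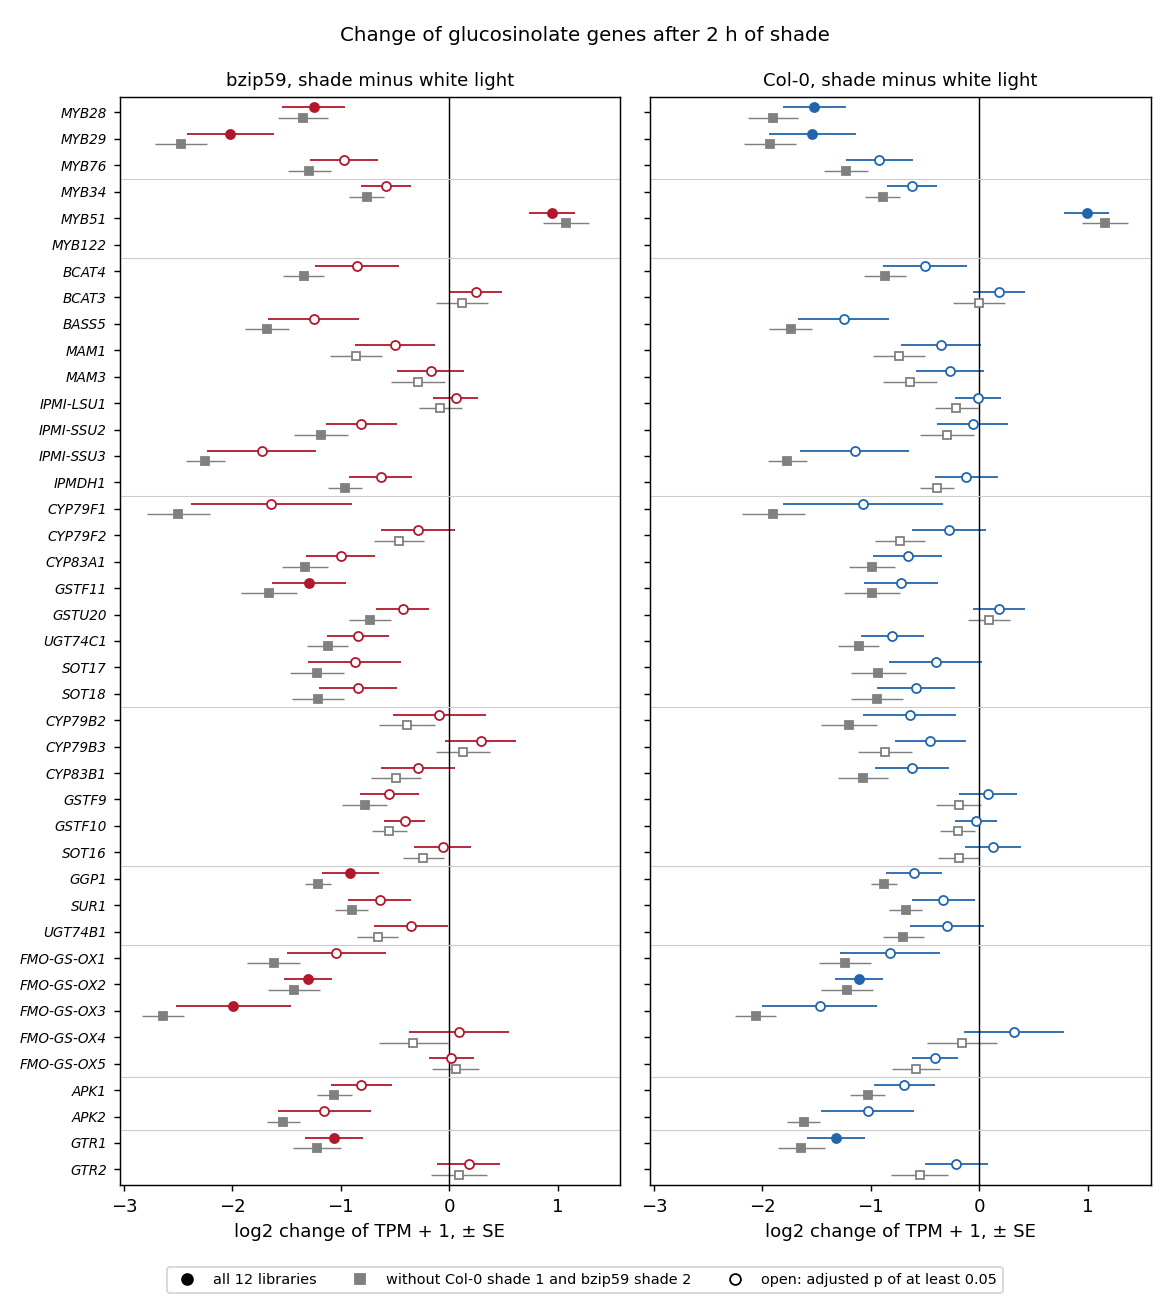
Log2 changes of TPM + 1 after shade for each gene, with bars of 1 SE, in bzip59 at left and Col-0 at right. Coloured circles use all 12 libraries and grey squares leave out bzip59 shade 2 and Col-0 shade 1. Filled marks have an adjusted p under 0.05. Grey squares lie left of the circles for most genes, and MYB51 lies right of 0 in both panels.

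The mutation was examined next, and no glucosinolate gene was called between the genotypes in either light. In white light limma called 0 of 40 in bzip59 against Col-0, where 0.0254% of all genes were called, and 0 reached an unadjusted p under 0.05, where 15.5% of all genes did. Of 6 green tissue markers 4 and of 7 seed storage genes 6 reached it. The smallest p belonged to transferase genes. GSTF10 averaged 672 ± 86.3 TPM in bzip59 and 510.0 ± 83.1 TPM in Col-0 (SD, n = 3 each), with log2 0.40, SE 0.19, limma adjusted p = 0.323. GSTF9 averaged 1083 ± 86.3 TPM in bzip59 and 766 ± 209 TPM in Col-0 (SD, n = 3 each), with log2 0.53, SE 0.27, limma adjusted p = 0.355. GSTU20 averaged 324 ± 11.6 TPM in bzip59 and 235 ± 42.4 TPM in Col-0 (SD, n = 3 each), with log2 0.47, SE 0.24, limma adjusted p = 0.355. In white light 6 members lay higher in bzip59 with no overlap between the genotypes (GSTF9, GSTU20, IPMI-SSU3, IPMDH1, GGP1 and FMO-GS-OX3) and 1 lay lower (MYB122), where 2.76% of all tested genes lay higher and 15.7% lower in this way. GSTF9 was separated narrowly, by 989 against 986 TPM. Its transcript 2 stood at 367, 0 and 46.9 TPM in Col-0 white light, against 238, 312 and 201 TPM in bzip59 white light. The part of this transcript in the GSTF9 difference was not tested. The median difference of the 40 was log2 0.17, against -0.16 over all genes, and with TMM factors 0.35 against 0.00 over all genes. Seed storage transcripts, which mark residual seed material, summed to 190.0, 56.1 and 31.7 TPM in bzip59 white light, against 9.57, 9.39 and 7.13 TPM in Col-0 white light. Their part in the differences was not tested.

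In shade limma likewise called 0 of 40 genes between bzip59 and Col-0, where 0.0406% of all genes were called, with 0 at an unadjusted p under 0.05, where 2.71% of all genes were. Of the 3 genes with the smallest p, the chain elongation gene MAM3 had log2 -0.39, SE 0.31, limma adjusted p = 1, IPMI-SSU2 log2 -0.30, SE 0.33, limma adjusted p = 1 and FMO-GS-OX5 log2 0.16, SE 0.21, limma adjusted p = 1. IPMI-SSU2 changed its sign, to 0.03, without bzip59 shade 1. The sums of seed storage transcripts were 79.2, 10.1 and 2.39 TPM in bzip59 shade, against 5.22, 3.87 and 2.62 TPM in shaded Col-0.

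The interaction, which is the shade change in bzip59 less that in Col-0, gave 0 calls among the 40 genes by limma and 0% over all genes, with 0 at an unadjusted p under 0.05, where 8.01% of all genes were. Its smallest p values were those of GSTU20 (log2 -0.61, SE 0.34, limma adjusted p = 0.624), GSTF9 (log2 -0.62, SE 0.38, limma adjusted p = 0.635) and IPMI-SSU2 (log2 -0.75, SE 0.47, limma adjusted p = 0.64). The median of the 40 was log2 -0.17, against 0.15 over all genes, and with TMM factors -0.33, against 0.00 over all genes. The 95% interval of the interaction was -0.64 to 1.18 for MYB28, -1.71 to 0.75 for MYB29, -0.70 to 0.60 for MYB51 and -0.59 to 1.12 for GTR1. For pairwise changes the 95% interval reached 0.69 to either side at the median of the 40 genes, so smaller genotype differences would be within the error of a typical member. Without the pair the counts were again 0 in all 3 comparisons, where 0.0509%, 0.0408% and 0.0458% of all genes were called, and 8, 1 and 4 of the 40 reached an unadjusted p under 0.05, where 15.1%, 3.81% and 9.6% of all genes did.

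Genes around the pathway were taken from lists by function. After shade 3.7% of all tested genes were called lower and 6.49% higher in bzip59, and 6.5% and 3.42% in Col-0. Without the pair 3.82% were called lower in bzip59 and 7.38% in Col-0. Of 10 listed side chain and indole ring modification genes 9 were analysed here and 8 tested. GS-OH, which hydroxylates an alkenyl side chain and is printed as a locus in RefSeq (AT2G25450), stood at 93.6, 151 and 97.3 TPM in bzip59 shade, against 265, 218 and 245 TPM in bzip59 white light. It stood at 147, 111 and 127 TPM in shaded Col-0, against 257, 176 and 215 TPM in Col-0 white light, with no overlap, and was called lower in both genotypes (log2 -1.12, SE 0.20, limma adjusted p = 0.00438 in bzip59; log2 -0.73, SE 0.20, limma adjusted p = 0.0362 in Col-0). CYP81F2, which hydroxylates the indole ring, was called higher in bzip59 just under the threshold (log2 0.82, SE 0.24, limma adjusted p = 0.0499) and lost the call without the pair (0.0661). Without the pair 2 of the 8 were called lower in each genotype. Of the 10 breakdown genes, myrosinases and their specifier proteins, 0 were called by limma in any comparison. After shade 1 in bzip59 and 0 in Col-0 reached an unadjusted p under 0.05, where 26.6% and 22.6% of all tested genes did. Medians of the breakdown genes were log2 0.23 in bzip59 and -0.03 in Col-0. Of the camalexin branch, a tryptophan-derived defence compound, 1 of 3 genes was tested and it was not called.

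Upstream of the pathway, 2 of 7 listed regulators were called lower by shade in each genotype. Of all tested genes 3.7% were called lower in bzip59 and 6.5% in Col-0. SDI1, a sulfur-deficiency gene whose product represses glucosinolate synthesis by binding MYB28, stood at 1.86, 4.42 and 2.51 TPM in bzip59 shade, against 13.8, 13.4 and 10.8 TPM in bzip59 white light. In Col-0 it stood at 5.03, 2.29 and 4.54 TPM in shade, against 12.9, 20.7 and 9.89 TPM in white light. Every shade library lay below every white-light library of its genotype. Its relative SDI2 stood at 5.02, 14.7 and 5.62 TPM in bzip59 shade, against 35.3, 23.9 and 29.1 TPM in bzip59 white light. In Col-0 SDI2 stood at 11.8, 5.57 and 7.26 TPM in shade, against 34.6, 47.3 and 30.4 TPM in white light. Again the groups did not overlap. SDI1 and SDI2 had changes of -1.84 and -1.81 in bzip59 (limma adjusted p = 0.00319 and 0.00727) and -1.63 and -2.09 in Col-0 (0.00594 and 0.00284). The bHLH activators MYC2, MYC3 and MYC4 were not called in either genotype with all libraries. Without the pair MYC4 was called lower in Col-0 (log2 -0.93, limma adjusted p = 0.0225), so that 2 of the 7 regulators were lower in bzip59 and 3 in Col-0. In that fit 3.82% and 7.38% of all tested genes were called lower.

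Of 12 genes of sulfate activation and glutathione supply, 3 were called lower in each genotype, and 1 was called higher in bzip59. Over all tested genes 3.7% were called lower and 6.49% higher in bzip59, and 6.5% lower in Col-0. The lower ones were the APS reductase genes APR1, APR2 and APR3, whose enzymes take sulfate toward cysteine and compete with the APS kinases for substrate. By the smallest p, APR2 stood at 23.9, 34.6 and 29.9 TPM in bzip59 shade, against 111, 93.7 and 110.0 TPM in bzip59 white light, and 39.9, 18.1 and 20.6 TPM in shaded Col-0, against 107, 162 and 74.9 TPM in Col-0 white light (log2 -1.81, SE 0.30, limma adjusted p = 0.00327 in bzip59; log2 -2.10, SE 0.30, limma adjusted p = 0.00119 in Col-0). APR3 stood at 17.9, 43.5 and 21.4 TPM in bzip59 shade, against 134, 88.0 and 129 TPM in bzip59 white light, and 45.2, 19.2 and 21.6 TPM in shaded Col-0, against 142, 191 and 116 TPM in Col-0 white light (log2 -2.12, SE 0.36, limma adjusted p = 0.00375 in bzip59; log2 -2.42, SE 0.36, limma adjusted p = 0.00151 in Col-0). Neither gene overlapped between shade and white light, the libraries of the pair included. APK4, another APS kinase gene, was called higher in bzip59 (log2 0.66, SE 0.17, limma adjusted p = 0.0289) and not without the pair (0.0761). Without the pair 3 of the 12 genes were called lower in bzip59 and 5 in Col-0, where 3.82% and 7.38% of all tested genes were. None of these lists had a gene called between the genotypes or in the interaction by limma.

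The marker lists were read beside these results. Over all tested genes 3.7% were called lower and 6.49% higher by shade in bzip59, and 6.5% and 3.42% in Col-0. Without the pair the shares were 3.82% and 5.13% in bzip59 and 7.38% and 2.91% in Col-0. An unadjusted p under 0.05 was reached by 26.6% of all tested genes in bzip59 and 22.6% in Col-0. Of 7 dehydration genes limma called 0 in bzip59 and 1 lower in Col-0, RAB18 (-1.45, limma adjusted p = 0.0105). Without the pair 2 of the 7 were called lower in each genotype. Of 6 green tissue markers it called LHCB2.1, a light-harvesting protein gene, higher in bzip59 (0.82, limma adjusted p = 0.0312) and 0 in Col-0. Without the pair 3 of the 6 were called higher in bzip59 and 0 in Col-0, and with all libraries 3 in bzip59 and 0 in Col-0 reached an unadjusted p under 0.05. Of 4 myrosin and guard cell markers, which stand for cells that hold myrosinase, it called MPK12 lower in Col-0 (-0.59, limma adjusted p = 0.0274) and 0 in bzip59, and their sums ran from 546 to 1057 TPM over the 12 libraries. Of 7 seed storage genes tested it called SESA3 lower in bzip59 (-2.05, limma adjusted p = 0.0194) and 0 in Col-0. An unadjusted p under 0.05 was reached by 6 of these 7 after shade in bzip59 and by 1 in Col-0, and their median difference was log2 -1.84 in bzip59 and -0.09 in Col-0. No endodermis or root hair marker was called, of 6 and 3 tested. The part of these markers in the shade results was not tested.

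Annotated transcripts were then examined for the 14 genes with more than 1, a step chosen after the data were seen. Of 35 transcripts 29 reached a mean of 1 TPM, and limma over 26282 transcripts called 4 lower in bzip59 and 3 lower in Col-0 after shade, where 2.17% and 4.15% of all transcripts were called. Both MYB28 transcripts fell in both genotypes. The minor transcript 1 changed by log2 -1.24 in bzip59 and -1.18 in Col-0 (limma adjusted p = 0.0206 and 0.0229) and the major transcript 2 by -1.20 in bzip59 and -1.52 in Col-0 (limma adjusted p = 0.0451 and 0.013). Transcript 5 of BASS5 was lower in Col-0 (-1.95, limma adjusted p = 0.0173), and transcript 1 of FMO-GS-OX2 and transcript 2 of FMO-GS-OX3 were lower in bzip59 (limma adjusted p = 0.0176 and 0.0386). Leaving out bzip59 shade 1 ended each of the 4 bzip59 calls, with limma adjusted p between 0.083 and 0.168. So did leaving out bzip59 white light 3. Leaving out Col-0 shade 2 or 3 ended each of the 3 Col-0 calls, with limma adjusted p between 0.0597 and 0.106. So did leaving out Col-0 white light 2. Transcript 2 of FMO-GS-OX3, at 0, 0.48 and 0.40 TPM in bzip59 shade, lost its call under 12 of 21 alternatives. Without the pair its limma adjusted p was 0.0553. In all, 9 single libraries ended the bzip59 call of MYB28 transcript 2 when left out, 3 of them from Col-0.

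CYP79B2 was picked after its values were seen, for the make-up of its transcripts. Transcript 1 of CYP79B2 stood at 14.3, 13.7 and 3.47 TPM in bzip59 shade, against 37.7, 19.6 and 27.9 TPM in bzip59 white light. In Col-0 it stood at 16.6, 12.1 and 16.9 TPM in shade, against 47.6, 40.2 and 40.6 TPM in white light. All shade libraries lay below all white-light libraries of their genotype for transcript 1. Transcript 2 stood at 9.95, 32.9 and 21.9 TPM in bzip59 shade, against 10.5, 3.70 and 3.21 TPM in bzip59 white light. In Col-0 it stood at 45.0, 4.36 and 4.15 TPM in shade, against 3.35, 0 and 1.09 TPM in white light. For transcript 2 all Col-0 shade libraries lay above Col-0 white light, and the bzip59 groups overlapped. Neither passed, at limma adjusted p = 0.0545 in bzip59 and 0.0593 in Col-0 for transcript 1 and 0.261 and 0.127 for transcript 2. The share of transcript 2 in the gene was 41.1%, 70.5% and 86.3% in bzip59 shade, against 21.8%, 15.9% and 10.3% in bzip59 white light. In Col-0 it was 73%, 26.5% and 19.7% in shade, against 6.58%, 0% and 2.62% in white light. Transcript 2 of CYP79B3 held 6.10, 3.92 and 12.4 TPM in bzip59 shade, against 0, 1.24 and 0.77 TPM in bzip59 white light. In Col-0 it held 17.5, 1.07 and 11.9 TPM in shade, against 0, 0 and 4.64 TPM in white light. It did not pass (limma adjusted p = 0.151 in bzip59; 0.176 in Col-0). The split between transcripts also varied among replicates of 1 group. In Col-0 white light transcript 1 of MAM1 stood at 105, 0 and 64.2 TPM and transcript 2 of GSTF9 at 367, 0 and 46.9 TPM. Transcript 2 of MYB28, by contrast, kept 90.5%, 87.3% and 84.5% of its gene there. The files give no depth, and how reads were divided between transcripts is not given in the sources used here.

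**Figure D5:**
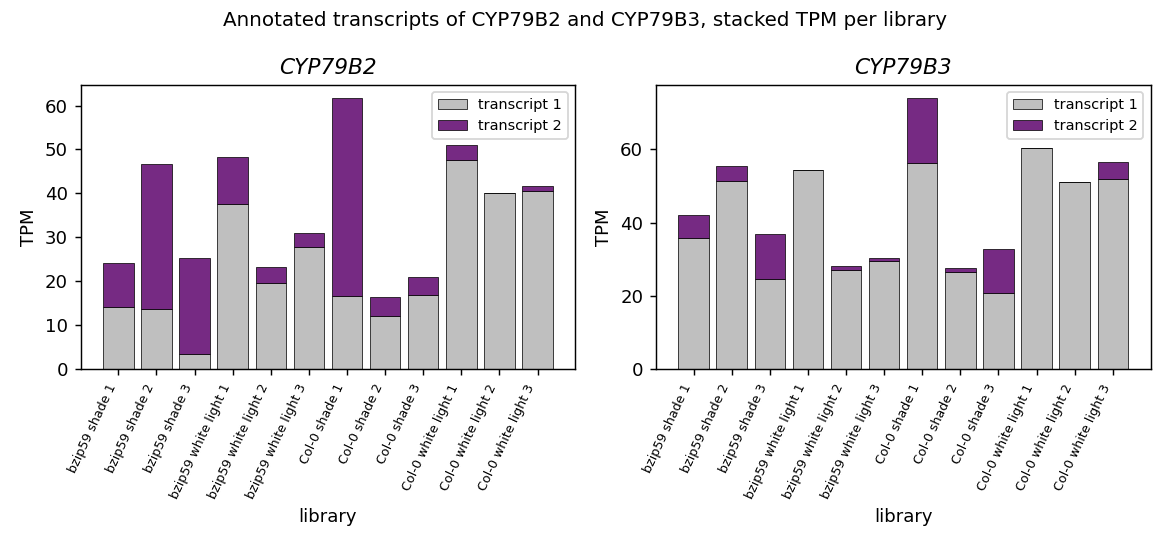
Stacked bars give TPM of the annotated transcripts of CYP79B2 and CYP79B3 in each of the 12 libraries, grey for transcript 1 and purple for transcript 2. For CYP79B2 the purple part is larger than the grey in bzip59 shade 2 and 3 and in Col-0 shade 1.

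On the TPM scale, which corrects for transcript length, levels in Col-0 white light spanned from MYB122 at 0.73 TPM to GSTF9 at 766 TPM. The transferases GSTF9, GSTF10 and GSTU20 led, at means of 766, 510.0 and 235 TPM, followed by GGP1 at 152 TPM and IPMI-LSU1 at 131 TPM. Among the regulators MYB28 and MYB34 led, at 50.3 ± 15.9 and 41.5 ± 4.89 TPM (SD, n = 3), and did not differ beyond their spread. MYB29 followed at 13.3 ± 2.96 TPM, MYB51 at 5.96 ± 1.31 TPM and MYB76 at 2.15 ± 0.18 TPM. In shade MYB34 led in Col-0 at 27.7 ± 10.2 TPM, above MYB28 at 17.6 ± 9.11 and MYB51 at 12.9 ± 3.16 TPM. MYB34 overlapped MYB28 there and did not overlap MYB51, whose highest library stood at 16.2 TPM. Summed over the 41 genes, levels were 2189, 3842 and 2457 TPM in bzip59 shade, against 4147, 3869 and 3898 TPM in bzip59 white light, and 4158, 2170 and 2557 TPM in shaded Col-0, against 3818, 3002 and 2989 TPM in Col-0 white light. Col-0 shade 1 lay above every Col-0 white-light sum and bzip59 shade 2 just below the lowest bzip59 white-light sum, while the other 4 shade libraries lay at 2557 TPM or less.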

How the data were processed

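Poly(A) RNA of whole seedlings was reverse transcribed with random primers and sequenced, per the labels' protocols, and strandedness was not stated. The submitters' processing notes name fastp, cutadapt, HISAT2, DESeq2 and the build TAIR10. Per the file headers the deposited values are TPM for each transcript, and the tool behind them is not given in the sources used here. Transcripts (54013) were summed to 32833 genes. The 4 deposited group means, equal to the means of their libraries within 3.3e-06 TPM, were not used. Without counts, a count test was not run.

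The 19693 genes whose mean reached 1 TPM were tested with limma 3.58.1 in R 4.3.3 on log2(TPM + 1), with an intensity trend, in 1 fit of 4 group means with 5 contrasts. The fit was tested on simulated data. The members, the 11 gene lists and the pair of libraries left out were chosen with earlier results of these data known. Values in every library were given for the MYB, APK and GTR genes and up to 12 called members a contrast by smallest p, other pathway genes by up to 2 called genes a list, and the smallest 3 p where none was called. All 41 loci matched RefSeq locus tags. Of 75 list genes 74 were used, and AOP2 was not analysed here. Alternatives were pseudocounts of 0.1 and 0.5, no filter, a mean of 5 TPM, TMM factors, quantile normalization, no trend, only the 2 groups compared, a replicate block, and libraries left out. Figures used Python 3.11.15 and matplotlib 3.10.9.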

Additional observations from a re-analysis of the deposited data

How the results depend on the processing

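The number of members called lower after shade depended on scaling, filter and libraries. In bzip59 the 7 lower calls became 3 with no filter, 14 with TMM factors (factors between 0.832 and 1.11), 13 with quantile normalization, 4 with only the 2 groups compared and 25 without bzip59 shade 2 and Col-0 shade 1, and between 2 and 19 with single libraries left out. Over all genes the lower calls in bzip59, 729 with the settings of the report, became 659 with no filter, 1087 with TMM factors, 1077 with quantile normalization, 562 with only the 2 groups, 749 without the pair and between 336 and 839 with single libraries left out. In Col-0 the 4 lower calls became 24 without that pair and between 2 and 15 with single libraries left out, where those over all genes, 1280, became 1448 and between 627 and 1572. The 1 higher call became 0 in bzip59 with TMM factors or quantile normalization, and ranged between 0 and 1 in each genotype with single libraries left out. With the replicate block the counts were 5 lower and 1 higher in bzip59, GSTF11 and GGP1 having lost their calls, and 4 lower and 1 higher in Col-0. Whether the replicate numbers pair the samples is not said in the labels and was not settled here. Deviations of same-numbered libraries correlated between -0.15 and 0.25, while for 9 of 12 libraries the best match in another group had the same number. The cause of these shifts was not tested. Comparisons of the genotypes and the interaction gave 0 calls in every alternative run; the interaction was not run with only the 2 groups. The calls of MYB28 in Col-0, MYB29 in bzip59 and FMO-GS-OX2 in both held in every alternative where they were tested. The change of IPMI-SSU2 between genotypes in shade, -0.30 with all libraries, ran from -0.68 to 0.03 with single libraries left out and reversed without bzip59 shade 1. Unknown depth limits what can be said of genes near 1 TPM, and 3 libraries a group left a median 95% interval of 0.69 to either side on the log2 scale.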
